A study of Rattus norvegicus with 12 samples.

Results

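The genes described here are 40 genes of macroautophagy: the machinery that builds the autophagosome, the ATG8 proteins on its membrane, the receptors that bring cargo to it and the factors that join it to the lysosome. They were chosen by name, as every probe that was not a control and whose gene name in the array files is a current or older symbol of a listed gene. The list matched 62 of 45598 probes, and 35 of the 40 genes were measurable, of 13542 genes and transcripts in all. The RNA came from N27 cells, an immortalised line derived from fetal rat midbrain that the labels class as dopaminergic. Cells received 25 µM fipronil, a phenylpyrazole insecticide that blocks GABA-gated chloride channels, for 24 h (6 arrays), or were left untreated (6 arrays), and all 12 samples are N27 cells with no other stated treatment. Neither separate cultures for the replicates nor a solvent for the controls is stated, so the p-values describe variation among these 12 samples, part of which may be technical.

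Autophagy starts when the ULK kinase complex signals to the class III phosphatidylinositol 3-kinase complex, whose lipid product recruits WIPI and ATG2 proteins to a growing membrane. A pair of ubiquitin-like conjugation systems then attaches the ATG8 proteins (the LC3 and GABARAP families) to lipid in that membrane, where receptors such as p62 bind them and carry ubiquitinated cargo in. Much of the pathway is controlled through phosphorylation and protein turnover, which arrays do not read, while several of its genes are also targets of stress-responsive transcription factors. Neurons depend on the pathway to clear damaged mitochondria and aggregated proteins.

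A probe's level is given here as log2 signal relative to the array's 75th percentile, so that a value of 0 is a bright probe and each unit is a doubling. Differences are log2, fipronil minus control. Levels of different probes are not compared with each other. The arrays lay on 3 slides, each scanned once. Slide 1 held 2 control arrays (replicates 2 and 3) and 2 fipronil arrays (replicates 7 and 8), slide 2 held 4 control arrays (replicates 5 to 8) and slide 3 held 4 fipronil arrays (replicates 1 to 4). Slides 2 and 3 therefore cannot be told apart from control and fipronil, and slide 1 alone compares the treatments within a slide. The 75th percentile of the processed signal was 245 to 279 on slide 1, 379 to 472 on slide 2 and 111 to 140 on slide 3, and the share of spots well above background was 44.5% to 46.8%, 47.4% to 50% and 40.8% to 42.5%. Of 10 dopaminergic markers, Th was well above background on 12 arrays and Aldh1a1 on 8, while Slc6a3, Ddc, Pitx3, Foxa2 and En1 were on 0. Of 6 general neuronal markers 1, Tubb3, was measurable, and lists for astrocytes, oligodendrocytes, microglia and endothelium gave 1 of 5, 2 of 5, 2 of 5 and 2 of 4.

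Some of the probes are shown here, among them 2 pairs that overlap in sequence. Whether the values of overlapping probes differ was not tested. Each probe is 60 bases long. The first 30 bases are shown, 5′ to 3′, as the array files give them, with the start position that the file gives in its transcript. Capitals mark bases that a second probe of the same gene shares. The first is the probe of Tecpr1, the one gene of the list that passed the test, and the next 4 are the overlapping pairs of Map1lc3b and Atg9a.
Tecpr1, base 4113: atatctagataagcaaaccaggcatgaagg
Map1lc3b, base 1672: aagatgctgctcaggcaGCCATTGTAGGAC
Map1lc3b, base 1689: GCCATTGTAGGACACCTGTACTCTGATGCA
Atg9a, base 4019: agcAGACAGGGTGGGAACCCTGTACAGCTT
Atg9a, base 4022: AGACAGGGTGGGAACCCTGTACAGCTTGAT
The Sqstm1 probes do not overlap, and are shown because they did not behave alike (see the values for the cargo receptors). The probe at base 727 is assigned by the file to a different transcript of the gene from the other two.
Sqstm1, base 727: tggcctaaagtccagaagttcctacaatca
Sqstm1, base 1072: ccatccacaggtgaactccagtctctacag
Sqstm1, base 1928: ctatgtagcttcctctgacttgatttttaa

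With fipronil, 1 of the 35 measurable autophagy genes was higher and 0 were lower (limma, Benjamini-Hochberg adjusted p under 0.05 over all 13542 genes), and that gene was Tecpr1. Over all genes the same test called 5.01%, 2.24% higher and 2.77% lower, so the share among the autophagy genes was not above the background. At an unadjusted p under 0.05 the list held 6 higher and 4 lower genes. Of all genes 25% passed in either direction, 9.36% higher and 15.6% lower. The median difference of the 35 genes was -0.11, against -0.08 over all genes. Of the 35 differences 15 (42.9%) were above 0, against 40.3% of all genes. Groups did not overlap over the 12 arrays for Tecpr1 and Ulk1, against 4.18% of all genes. With a normexp background correction in place of the software's own and the same scaling, the count became 14 higher and 5 lower, and 50% of all genes passed; with quantile normalization after normexp it was again 1 and 0. Without fipronil replicate 8 it became 3 higher (Tecpr1, Uvrag and Epg5) and 2 lower (Ulk1 and Gabarap), and 14.9% of all genes passed. In the fit without fipronil replicate 8 the list's share was thus not above the background either.

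**Figure D1:**
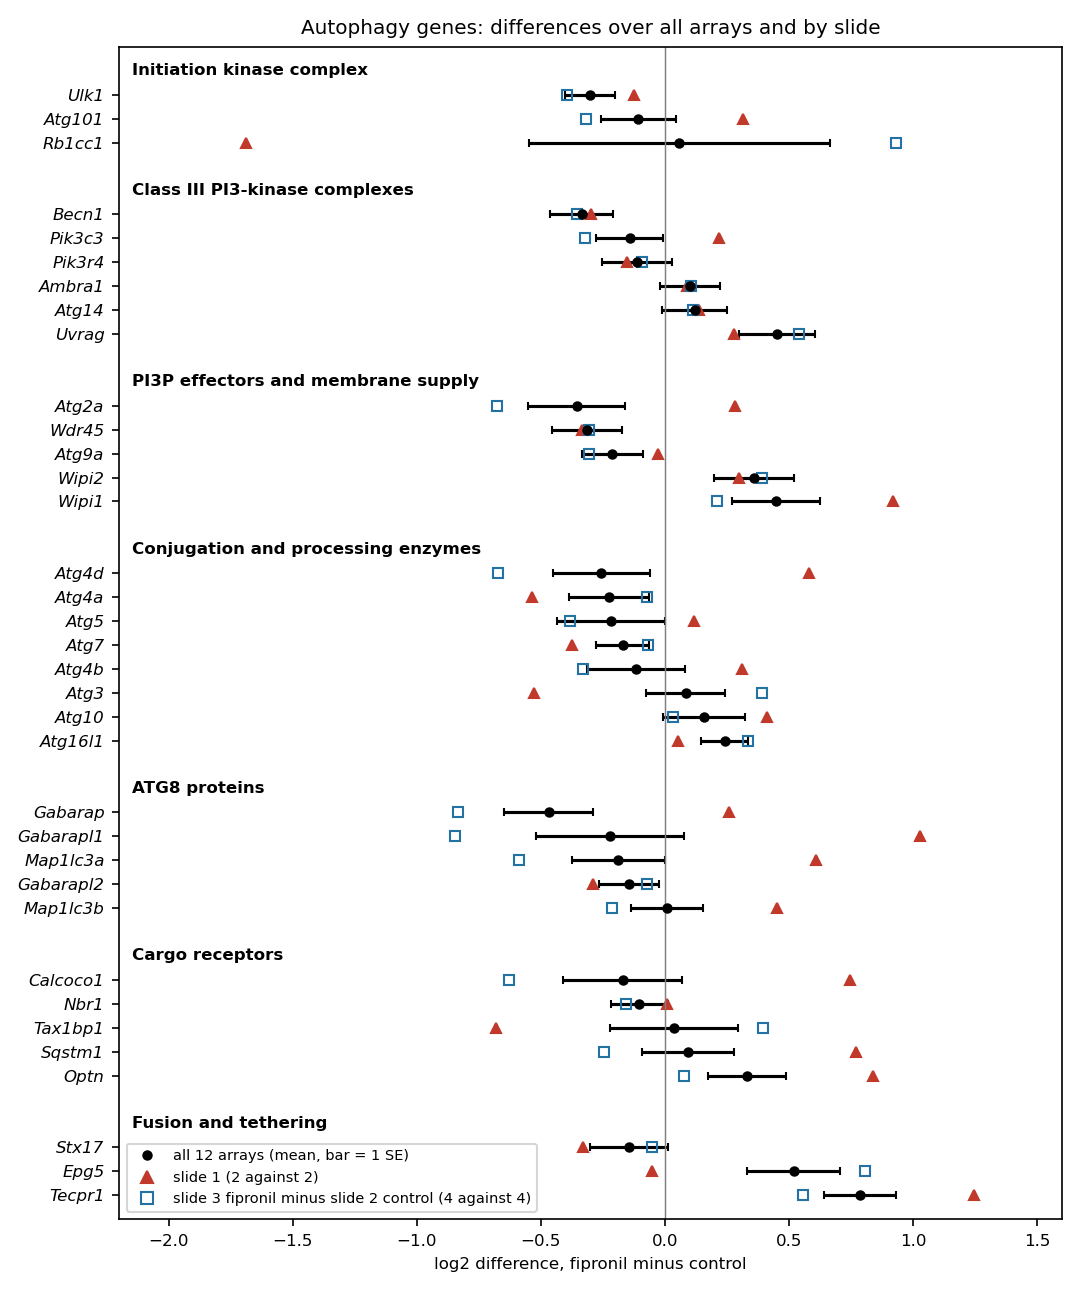
Log2 difference between fipronil and control arrays (x axis) for the 35 measurable autophagy genes, by role. Black points are means over 12 arrays with bars of 1 SE, red triangles the difference on slide 1 (2 against 2 arrays) and blue squares slide 3 fipronil minus slide 2 control (4 against 4). Tecpr1 lies furthest right among the black points at 0.79, and the triangles and squares fall on opposite sides of 0 for 17 genes.

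Within slide 1 the list stood at a median of 0.14, against -0.02 for all genes, and 22 of the 35 genes (62.9%) were above 0, against 48.4% of all genes. Both fipronil values exceeded both control values for 16 of them, and lay below both for 10. Over all genes those shares were 25.2% and 28.5%. Across slides 2 and 3 the list's median was -0.09, against -0.10 for all genes. The differences on slide 1 and between slides 2 and 3 were of opposite sign for 17 of the 35 genes (48.6%), against 56.2% among all genes. A test of the difference between those differences, added after the data had been seen, passed for 8 of the 35 (limma, adjusted over all genes), where it passed for 9.14% of all genes. These were Atg4d, Map1lc3a, Gabarapl1, Gabarap, Atg2a, Atg3, Calcoco1 and Sqstm1. When slide was fitted as a fixed block, so that slide 1 alone gives the difference, 1 of the 35 passed, against 0.0886% of all genes (12 genes), and it was again Tecpr1. At an unadjusted p under 0.05 that fit gave 12 of the 35, of them 9 higher, against 19% of all genes. With slide as a random block in limma 0 passed, against 0.155% of all genes (21 genes), and 4 had an unadjusted p under 0.05, against 14.7%.

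**Figure D2:**
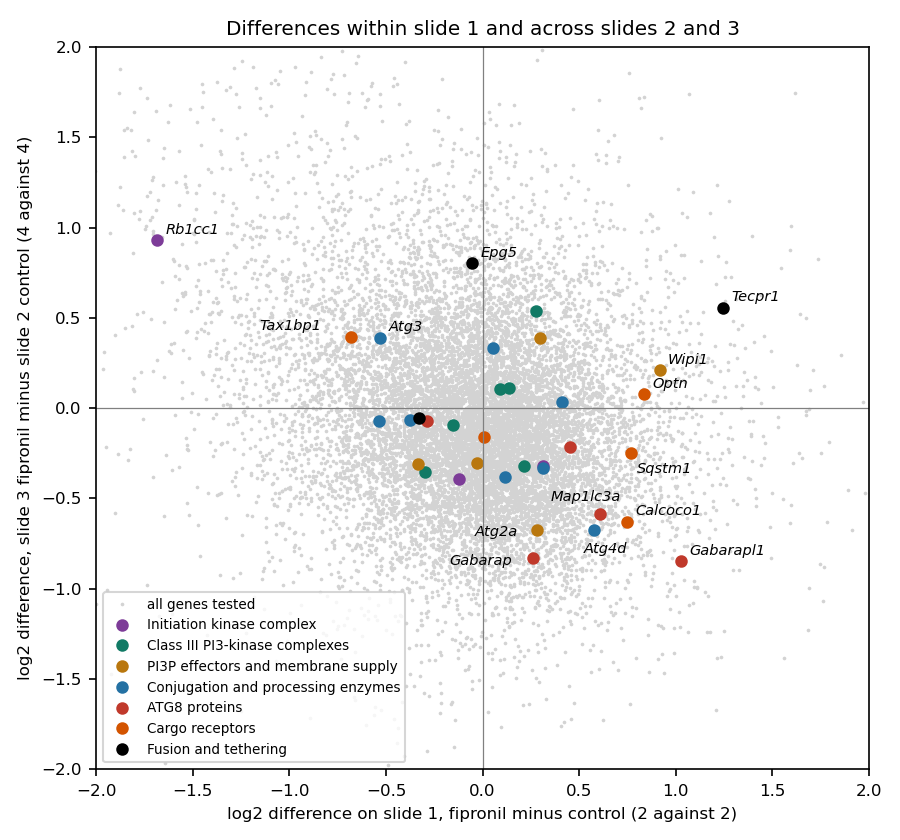
Each gene's log2 difference on slide 1 (x axis, 2 fipronil against 2 control arrays) against its difference across slides (y axis, 4 fipronil arrays of slide 3 against 4 control arrays of slide 2). Grey points are all genes within the limits of the axes and coloured points the autophagy genes by role; Tecpr1 is above 0 on both axes (1.24 and 0.56), and Gabarapl1 lies at 1.03 and -0.85.

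The initiation complex holds the kinases ULK1 and ULK2 with ATG13, FIP200 (Rb1cc1) and ATG101. None of its 3 measurable genes passed the test, and 1 was lower at an unadjusted p under 0.05, as were 15.6% of all genes. Ulk1 (chromosome 12), the kinase that mTOR holds in check when nutrients are plentiful, was at 0.82 and 0.85 in the slide 1 controls, 0.80, 0.85, 0.98 and 0.81 in the slide 2 controls, 0.70 and 0.72 in the slide 1 fipronil arrays and 0.59, 0.47, 0.49 and 0.31 on slide 3. All 6 fipronil values lay below all 6 control values. The means were 0.85 ± 0.07 and 0.55 ± 0.15 (SD, n = 6), a difference of -0.30 (SE 0.10), and the limma adjusted p was 0.0873. On slide 1 the difference was -0.12 (SE 0.15), and between slides 2 and 3 it was -0.39. Atg101, which stabilises ATG13, differed by -0.11 (SE 0.15), at 0.31 within slide 1 and -0.32 between the others. Ulk2 and Atg13 had too few arrays above background to be tested.

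Rb1cc1 (FIP200, the scaffold of the complex) is described for its spread and was picked after its values were seen. Its control values ran from -2.35 on slide 1 to -5.05 on slide 2, and its fipronil values from -2.18 on slide 3 to -5.50 in replicate 8 on slide 1. The groups overlapped over almost their whole range, and the difference was 0.06 (SE 0.61), at -1.69 within slide 1 and 0.93 between slides 2 and 3. Its second probe, at base 5902, was lowest in the same array, at -6.27, and its slide 1 difference was -1.64. Both probes were dim: the first was above background on 9 arrays and the second on 10.

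The class III phosphatidylinositol 3-kinase complexes share the lipid kinase VPS34 (Pik3c3), its regulator VPS15 (Pik3r4) and Beclin 1 (Becn1), and differ in whether ATG14 or UVRAG is bound. Of the 6 genes none passed. At an unadjusted p under 0.05, 1 was higher and 1 lower, against 9.36% and 15.6% of all genes. Uvrag (chromosome 1), whose product takes part in maturation and endocytic traffic, was at -0.38 and -1.06 in the slide 1 controls, -0.65, -0.73, -0.54 and -0.45 on slide 2, -0.46 and -0.43 in the slide 1 fipronil arrays and -0.33, -0.11, 0.01 and 0.22 on slide 3. The slide 3 values were the highest of the 12, while those of slide 1 lay among the controls. The difference was 0.45 (SE 0.15, limma adjusted p 0.0924), at 0.28 within slide 1 and 0.54 between slides 2 and 3. Its dimmer probe, at base 3646, differed by 0.63 (SE 0.43) and by -0.15 on slide 1.

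Becn1 (chromosome 10), chosen after its values were seen, differed by -0.34 (SE 0.13, limma adjusted p 0.127). Its values were even by slide, at -0.30 within slide 1 and -0.36 between the others, and its groups overlapped, since fipronil replicate 4 was the highest of all arrays at 0.45. Atg14, Ambra1 and Pik3r4 differed by 0.12, 0.10 and -0.11. Pik3c3 differed by -0.14, at 0.22 within slide 1 and -0.32 between slides 2 and 3.

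The WIPI proteins bind the lipid made by that kinase, ATG2 moves lipid into the membrane and ATG9A is the transmembrane scramblase that seeds it. None of the 5 measurable genes passed. At an unadjusted p under 0.05, 2 were higher and 1 lower, against 9.36% and 15.6% of all genes. Wipi1 (chromosome 10) was at -4.03 and -3.03 in the slide 1 controls, -3.09, -3.23, -3 and -3.12 on slide 2, -2.76 and -2.47 in the slide 1 fipronil arrays and -3.11, -2.78, -2.74 and -2.96 on slide 3. The fipronil arrays were mostly higher, and the groups overlapped through fipronil replicate 1. The difference was 0.45 (SE 0.18, limma adjusted p 0.142), with 0.92 on slide 1, where control replicate 2 was far below the other controls, and 0.21 between slides 2 and 3. Wipi2, which recruits ATG16L1, differed by 0.36 (SE 0.16) with like values by slide, 0.30 and 0.39. Wdr45, the WIPI family gene on chromosome X, differed by -0.32 (SE 0.14), also with like values by slide, -0.33 and -0.31. Atg2a differed by -0.36, at 0.28 within slide 1 and -0.68 between the others.

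Atg9a, at -0.21, was measured by probes of nearly the same sequence. Its probes share 57 of 60 bases, and on slide 1 the one at base 4019 differed by -0.03 and the one at base 4022 by 0.32. Over all arrays they differed by -0.21 (SE 0.12) and -0.16 (SE 0.18), which are close. The slide 1 differences were of opposite sign, but the first was near 0 (SE 0.20 in the slide block fit). The gap between the probes was not tested.

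ATG7 and ATG10 or ATG3 are the enzymes that conjugate ATG12 to ATG5 and the ATG8 proteins to lipid, ATG16L1 places the reaction on the membrane, and ATG4 proteases trim the ATG8 proteins. None of the 8 measurable genes passed, and 1 was higher at an unadjusted p under 0.05, as were 9.36% of all genes. Atg16l1 (chromosome 9), the gene of this group with the smallest p, was at -0.58 and -0.70 in the slide 1 controls, -0.66, -0.68, -0.85 and -0.69 on slide 2, -0.59 and -0.58 in the slide 1 fipronil arrays and -0.33, -0.38, -0.47 and -0.35 on slide 3. All 4 slide 3 arrays were higher than any other array, and the slide 1 fipronil arrays lay at the top of the control range. The difference was 0.24 (SE 0.10, limma adjusted p 0.142), at 0.05 within slide 1 and 0.33 between the others. Atg3, an E2-like enzyme for the ATG8 proteins, went the other way by slide, at -0.53 on slide 1 and 0.39 between slides 2 and 3. The protease gene Atg4d had 0.58 and -0.67, and Atg4a, which the files name Atg4al1, had -0.54 and -0.07. The genes Atg5, Atg7, Atg10 and Atg4b differed by -0.22, -0.17, 0.16 and -0.12 over all arrays. Atg5 and Atg4b were well above background on all 6 control arrays and on 2 and 3 fipronil arrays.

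Atg12 (chromosome 18) was well above background on 5 control arrays and on 0 fipronil arrays, so it was not tested. Its measured values were -3.79 and -4.25 in the slide 1 controls, -3.59, -4.46, -3.99 and -4.07 on slide 2, -4.34 and -5.23 in the slide 1 fipronil arrays and -4.64, -3.80, -5.72 and -3.20 on slide 3. The groups overlapped, and fipronil replicate 4 was the highest of all arrays, so no fold is given. The means were -4.02 ± 0.31 and -4.49 ± 0.92 (SD, n = 6). The slide 3 arrays also had fewer spots above background than the others, and the part of this in the result was not tested. Atg4c and Atg13 were above background on 0 arrays, and probes of Atg2b and Ulk2 on at most 5 and 2 arrays.

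The ATG8 proteins coat the autophagosome, and LC3 turnover is the usual measure of autophagic flux at the protein level. None of their 5 genes passed, and 1 was lower at an unadjusted p under 0.05, as were 15.6% of all genes. Of the 5 differences 1, that of Map1lc3b, was above 0, against 40.3% of all genes. On slide 1 the median of the 5 was 0.45 with 4 of 5 above 0, against 48.4% of all genes. Between slides 2 and 3 it was -0.59 with 0 of 5 above 0, against 41.5%. Gabarap (chromosome 10), the gene of the group with the smallest p, was at 2.71 and 2.67 in the slide 1 controls, 3.29, 3.22, 3.16 and 2.96 on slide 2, 2.79 and 3.12 in the slide 1 fipronil arrays and 2.25, 2.33, 2.15 and 2.57 on slide 3. The slide 3 arrays were the lowest of all and the slide 1 arrays ran the other way. The difference was -0.47 (SE 0.18, limma adjusted p 0.128), at 0.26 within slide 1 and -0.83 between slides 2 and 3.

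Gabarapl1 (chromosome 4) had the widest gap between slides of the ATG8 genes, and was picked after its values were seen. The slide 1 controls were at 0.97 and 1.28 and the slide 1 fipronil arrays at 2.03 and 2.27. On slide 2 the controls were at 1.93, 1.97, 1.88 and 1.78 and on slide 3 the fipronil arrays were at 0.65, 0.59, 1.66 and 1.27. Control arrays of slide 1 were thus lower than control arrays of slide 2, and fipronil arrays of slide 1 higher than those of slide 3. The difference was 1.03 (SE 0.31) on slide 1, where the slide block fit in limma gave adjusted p 0.137, and -0.85 between the others. The gap between those differences was 1.87 (SE 0.38, limma adjusted p 0.0209).

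Map1lc3a (chromosome 3) had the same arrangement, at 0.61 within slide 1 and -0.59 between slides 2 and 3. Gabarapl2 had -0.29 and -0.07 by its brightest probe. Its second probe, at base 192, had -0.21 and -0.43, and differed by -0.36 over all arrays (SE 0.13, limma adjusted p 0.123 over all probes). Map1lc3b (chromosome 19) was at 0.45 and -0.21 by its brightest probe, at base 1689. The probe at base 1672, which shares 43 of its 60 bases, had 0.20 and -0.60, and its slide 3 values were all below its other 8 arrays. The probe at base 609 had 0.02 and 0.04. Of the 5 probes of this gene, the differences over all arrays ran from -0.33 to 0.03. The highest, at base 609, was near 0 (SE 0.11), and the probes were not tested against each other.

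**Figure D3:**
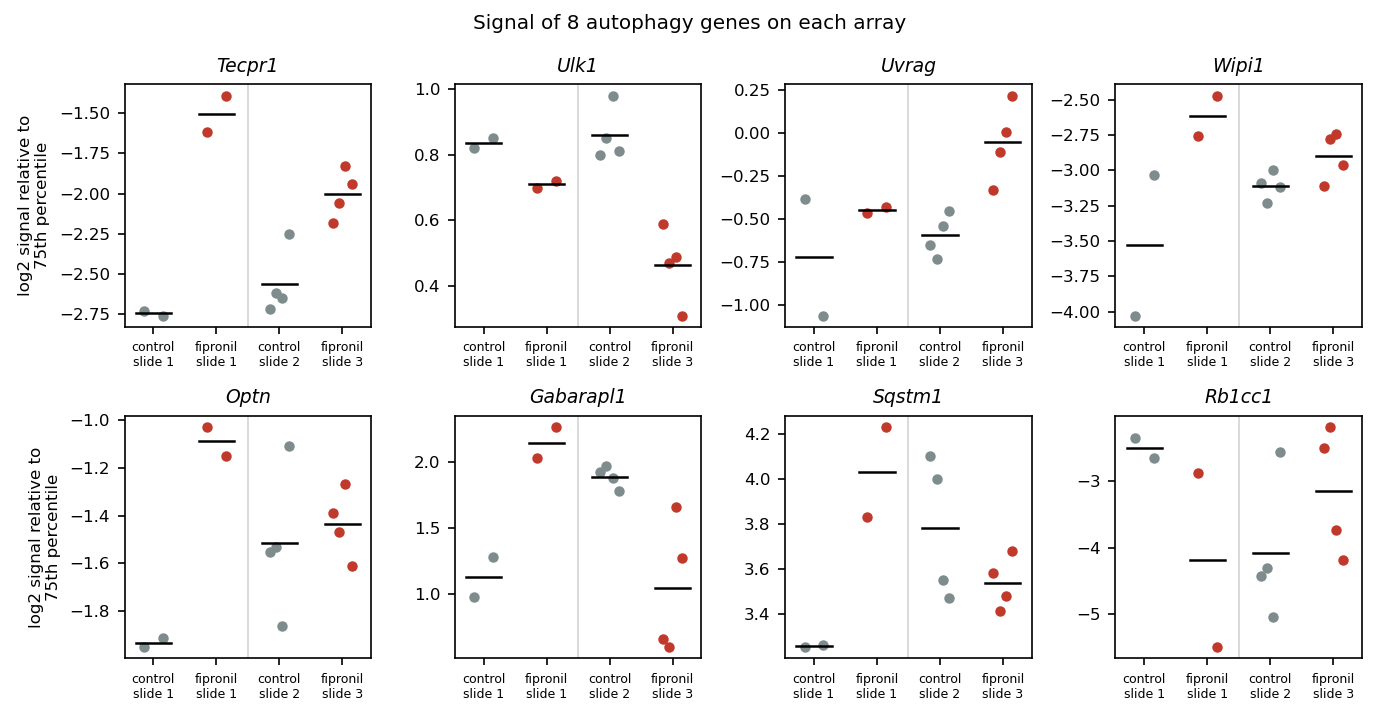
Log2 signal relative to the 75th percentile (y axis) on each array for 8 autophagy genes, with arrays grouped by slide and treatment (grey control, red fipronil) and black lines at group means. Tecpr1 fipronil arrays all lie above the controls, Ulk1 fipronil arrays all lie below them, and Gabarapl1 is high in fipronil on slide 1 and low on slide 3.

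Cargo receptors carry ubiquitinated proteins or damaged organelles to the ATG8 proteins. None of their 5 genes passed, and 0 had an unadjusted p under 0.05, against 25% of all genes. On slide 1 the median difference was 0.75 with 4 of 5 above 0, against 48.4% of all genes. Between slides 2 and 3 it was -0.16 with 2 of 5 above 0, against 41.5%. Optn (optineurin, a mitophagy receptor, chromosome 17) had the smallest p of the group. It was at -1.95 and -1.91 in the slide 1 controls, -1.55, -1.53, -1.86 and -1.11 on slide 2, -1.03 and -1.15 in the slide 1 fipronil arrays and -1.39, -1.47, -1.27 and -1.61 on slide 3. The groups separated on slide 1 and overlapped elsewhere. The difference was 0.33 (SE 0.16, limma adjusted p 0.215), at 0.84 within slide 1 and 0.08 between the others. A dimmer Optn probe, at base 1229, differed by 0.87 (SE 0.23), with 0.57 and 1.02 by slide, and passed when every probe was fitted on its own (limma adjusted p 0.0424, where 5.3% of 16291 probes passed). That call was lost in the slide block fit (limma adjusted p 0.454), its groups overlapped on slide 1, and it was above background on 10 arrays. The probe at base 3383 differed by 0.01.

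Sqstm1 (p62, chromosome 10), the receptor most used to follow autophagy, was picked after its values were seen. Its brightest probe was at 3.25 and 3.26 in the slide 1 controls, 4.10, 4, 3.55 and 3.47 on slide 2, 3.83 and 4.23 in the slide 1 fipronil arrays and 3.58, 3.41, 3.48 and 3.68 on slide 3. Slide 1 fipronil arrays lay above slide 1 controls, while slide 3 arrays lay at the lower end of slide 2. The difference was 0.09 (SE 0.19, limma adjusted p 0.796), with 0.77 on slide 1 (SE 0.23, limma adjusted p 0.138 in the slide block fit) and -0.25 between the others. The probe at base 1072 ran the same way, at 0.96 and -0.13. The probe at base 727 did not: it had 0.12 on slide 1 and 0.50 between slides 2 and 3, and its difference over all arrays was 0.37 (SE 0.13, limma adjusted p 0.104).

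Calcoco1, a receptor of the endoplasmic reticulum, had 0.75 and -0.63 by slide, and its second probe 0.56 and -0.16. Tax1bp1, which binds ubiquitin and NBR1, had -0.68 and 0.40, and Nbr1 differed by -0.10 with 0.01 and -0.16. Over all genes, probe GC content correlated with the slide 1 difference (Pearson r 0.31 over 13542 genes, rho 0.33) and with that between slides 2 and 3 (r -0.29, rho -0.31), as a description of genes that share arrays. Over the 35 autophagy genes these were r 0.27 (rho 0.21) and r -0.06. Genes within 2 points of 35% GC had a median slide 1 difference of -0.21, and autophagy genes with such probes lay on both sides of it, with Sqstm1 at 0.77 and Calcoco1 at 0.75 above, and Rb1cc1 at -1.69 and Atg4a at -0.54 below. Tax1bp1, at 38.3% GC, had -0.68, where the median of genes of like GC was -0.12. The slide 1 differences of Rb1cc1 and Tax1bp1 had SE 0.94 and 0.40 in the slide block fit. For both genes fipronil replicate 8 was the lowest of all arrays. Fipronil replicate 7 was at 1.45 for Tax1bp1, beside slide 1 controls at 1.63 and 1.52. The part of GC content in the slide 1 differences was not tested. The GC trend was removed only in an alternative fit of the difference over all arrays.

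**Figure D4:**
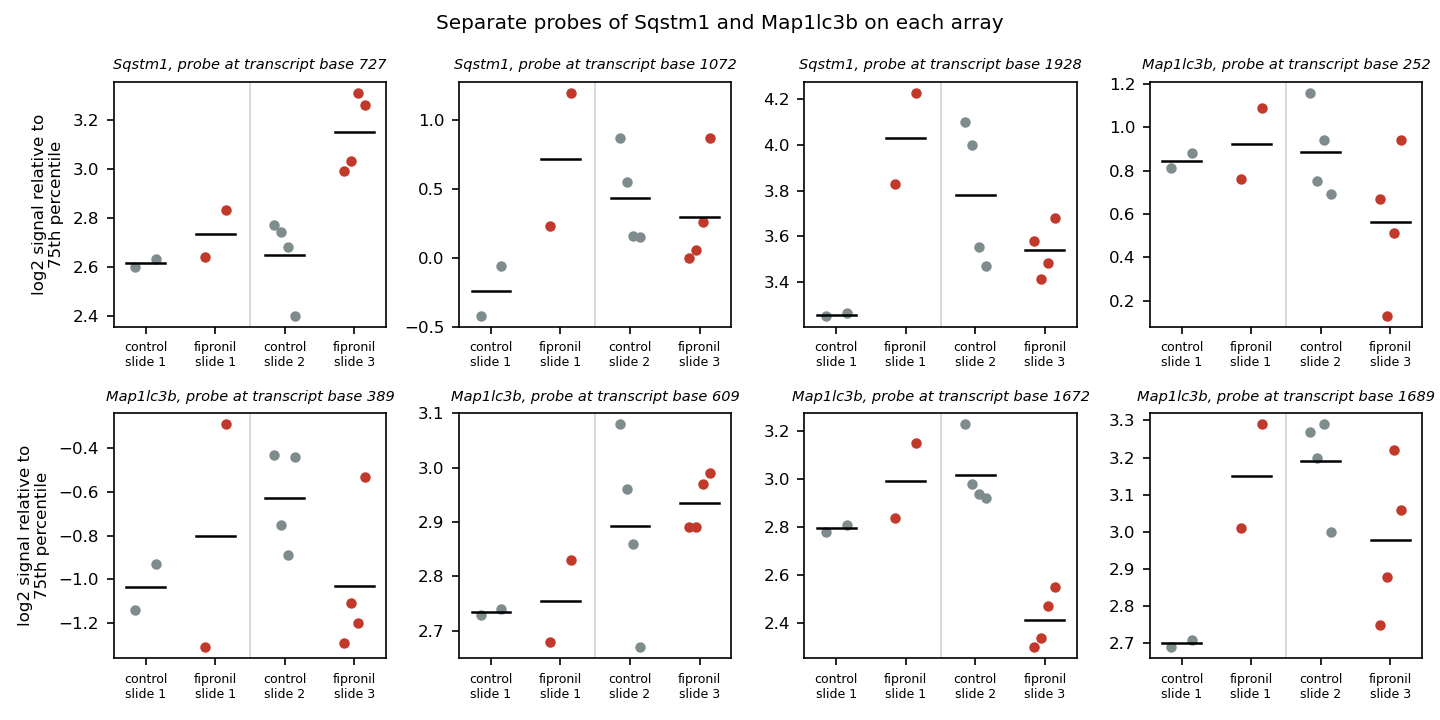
Log2 signal relative to the 75th percentile (y axis) on each array for the 3 Sqstm1 probes and the 5 Map1lc3b probes, with arrays grouped by slide and treatment (grey control, red fipronil) and black lines at group means. Sqstm1 fipronil arrays of slide 3 stand above the controls at base 727 and at the lower end of slide 2 at base 1928.

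Fusion and tethering factors join the finished autophagosome to the lysosome. Tecpr1 (chromosome 12), a tether that binds the ATG12-ATG5 conjugate, was at -2.73 and -2.76 in the slide 1 controls, -2.72, -2.62, -2.65 and -2.25 on slide 2, -1.62 and -1.39 in the slide 1 fipronil arrays and -2.18, -2.06, -1.83 and -1.94 on slide 3. Every fipronil array was higher than every control array, and the slide 1 arrays showed the larger step. The means were -2.62 ± 0.19 and -1.84 ± 0.29 (SD, n = 6), a difference of 0.79 (SE 0.15), or 1.72-fold, with limma adjusted p 0.0156. It was 1.24 (SE 0.19) on slide 1, where the slide block fit in limma gave adjusted p 0.0487, and 0.56 between slides 2 and 3. With slide as a random block the adjusted p was 0.0509.

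Tecpr1 passed in each of the 12 fits that left out 1 array (limma adjusted p 0.00959 to 0.0403, differences 0.70 to 0.86). In the slide block fit it no longer passed without control replicate 2 (limma adjusted p 0.149), control replicate 3 (0.143) or fipronil replicate 8 (0.306), and did without fipronil replicate 7 (0.0455). When every probe was fitted on its own with that block, its adjusted p was 0.0633. A single probe measured the gene.

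Epg5 (chromosome 18), a tether recruited by RAB7, differed by 0.52 (SE 0.19, limma adjusted p 0.112), with 0.80 between slides 2 and 3 and -0.05 within slide 1. It was at -1.89 and -1.72 in the slide 1 controls, -1.89, -1.71, -2.11 and -1.93 on slide 2, -1.70 and -2.03 in the slide 1 fipronil arrays and -0.79, -0.96, -1.32 and -1.34 on slide 3. The slide 3 arrays were the 4 highest, and those of slide 1 lay near the controls. Stx17, the SNARE of the autophagosome, differed by -0.15 (SE 0.16).

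Promoters of 36 of the 40 genes were matched by symbol in RefSeq's table for GRCr8, and the 250 bases before the start were searched on both strands. CACGTG, the E-box core read by TFEB and TFE3, was in 3 of the 36 (Atg3, Atg5 and Epg5), and in 5.59% of all 33469 promoters. TGACNNNGC, the antioxidant response core, was in 4 (Atg10, Atg4d, Gabarap and Ulk2), against 10.1%, and GTAAACA, a FOXO site, was in 1 (Wdr45), against 3.21%. The 3 windows with the E-box core are shown, with the motif in capitals.
Atg3, chr11:69159291-69159320, minus strand: tCACGTGtcccgggagattcgagtCACGTG
Atg5, chr20:49380804-49380833, plus strand: cggggcgctggcCACGTGggcgggtgacgt
Epg5, chr18:73679098-73679127, plus strand: tggagtgtttgtCACGTGacattcaggagg
These 3 genes differed by 0.08, -0.22 and 0.52, and none passed the test. A match is a description of the letters in this window.

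Of 56 further pathway genes, 45 were measurable, and 0 were higher and 2 lower, Phb2 and Wdfy3 (limma), where 2.24% and 2.77% of all genes were. At an unadjusted p under 0.05 the counts were 0 and 11, against 9.36% and 15.6% of all genes. The median difference was -0.21, against -0.08 over all genes. Phb2, a prohibitin of the inner mitochondrial membrane that acts as a mitophagy receptor, differed by -0.58 (SE 0.14, limma adjusted p 0.033), at -0.29 within slide 1 and -0.72 between the others. Wdfy3 (ALFY), a scaffold for aggregate clearance, differed by -0.53 (SE 0.14, limma adjusted p 0.0426), with -0.46 and -0.57. With slide as a fixed block neither passed, and 1 array could decide the count of lower genes. It fell to 0 on dropping any of control replicates 2, 6, 7 and 8 or any of fipronil replicates 1 to 4. It fell to 1 on dropping control replicate 3 or 5. It became 7 on dropping fipronil replicate 8, where 14.9% of all genes passed in either direction. Bnip3l, a mitophagy receptor, differed by -0.47 (limma adjusted p 0.0672). Tfeb, the transcription factor of lysosomal and autophagy genes, was at -3.95 ± 0.23 in controls and -4.30 ± 0.72 with fipronil (SD, n = 6), a difference of -0.35 (SE 0.28, limma adjusted p 0.461), at 0.29 within slide 1 and -0.66 between slides 2 and 3.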

How the data were processed

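Total RNA of 12 samples was labelled with Cy3 and hybridised to Agilent single-colour rat arrays. Per the submitters' processing notes, spots were read with Agilent Feature Extraction (version 10.7). Per the file headers, the processed signal is a background-subtracted, detrended intensity, not scaled between arrays, and the mean and local background signals are raw intensity. Per the file headers, the other columns used are software flags for outliers, saturation and well above background. A deposited table gives log2 values, quantile-normalized by the authors across arrays (lowest value 1.5, column median 3.05, not centred). It was checked against each array's processed signal (correlation at least 0.998) and served as an alternative.

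Processed signals were put on a log2 scale and centred on the array's own 75th percentile over non-control spots. Outlier spots were left out and spots of a probe averaged. A probe was kept when well above background on at least 6 of 12 arrays, counted without regard to treatment (51 of the 62 probes), and the brightest probe stood for a gene. Names came from RefSeq for GRCr8. Genes were compared with limma 3.58.1 (lmFit, eBayes, two-sided, R 4.3.3, version 1.17.8 of data.table), adjusted by Benjamini-Hochberg at 0.05. The step was tested on simulated data drawn without slide effects. That test therefore does not bear on the overlap of slide with treatment. It recovered some but not all of the genes given a known change, so a gene that did not pass is not shown to be unchanged. The number of arrays limits the precision. Alternatives were background correction, scaling, filter, probe choice, slide and replicate blocks, and leaving out arrays. The replicate numbers shared by both groups (2, 3, 7 and 8) were not treated as pairs: same-numbered arrays lay on different slides, and the correlations of their deviations were 0.43, 0.08, -0.11 and -0.31.

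Full values are given for genes past the threshold with or without the slide block, for genes whose groups did not overlap with the same sign on slide 1, and otherwise for the gene with the smallest p in its role; related genes are named when past the threshold, or as the 3 with the smallest p, and Tfeb and Ulk1 always. Rb1cc1, Becn1, Gabarapl1, Map1lc3a, Map1lc3b, Sqstm1, Calcoco1, Epg5 and the other genes outside this rule are described after their values were seen. The genes and lists were chosen with earlier results of these data known.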

Additional observations from a re-analysis of the deposited data

Results flagged for a closer look

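In 3 of 70 groups of 6 arrays, 1 array stood apart from the other 5 by Dixon's criterion (critical value 0.625), where chance gives about 1 in 20. For Ulk1, control replicate 7 was the highest control at 0.98, with the next at 0.85. For Wipi1, control replicate 2 was the lowest at -4.03, with the next at -3.23; this array is on slide 1 and enters the slide 1 difference. For Tecpr1, control replicate 8 was the highest control at -2.25, with the next at -2.62, and it still lay below every fipronil array.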

How the results depend on the processing

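Tecpr1 kept its direction in all 26 alternatives (0.38 to 1.24) and passed in 24. Among these, the fixed slide block and slide 1 arrays alone give the same difference by design. Tecpr1 did not pass with slide as a random block (limma adjusted p 0.0509) or on slide 1 arrays alone (0.266), where 0 of all 13542 genes passed. Quantile normalization, the deposited table and outlier spots kept gave the same counts and signs. A filter on all 12 arrays left 32 of the 35 genes, with 1 higher and 0 lower, and 3 lower related genes, where 9.1% of all genes passed. The replicate block also left 1 higher and 0 lower (median -0.12; 924 genes called in all), with Tecpr1 at adjusted p 0.0118. Causes of the shifts below were not tested. Arrays that are dim on slide 3 limit the dimmer genes.

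Higher counts, 1 as reported, became 14 with normexp and 75th percentile scaling, 2 with no filter, 0 with slide as a random block and 0 on slide 1 arrays alone. Leaving out 1 array gave 1 to 3, with 3 when fipronil replicate 8 was left out. Of all genes, in either direction, 50% passed with that normexp setting and 45.1% with no filter. With slide as a random block 0.155% passed, on slide 1 arrays alone 0%, and without fipronil replicate 8 14.9%. Lower counts, 0 as reported, became 5 with normexp and that scaling, and 0 to 2 leaving out 1 array. The list's median, -0.11 as reported, became -0.21 with median scaling (all genes -0.18), 0.18 with normexp and 75th percentile scaling (all genes 0.17), -0.03 with normexp and quantile normalization, 0.14 with slide as a fixed block, 0.01 with slide as a random block and 0.14 on slide 1 arrays alone. Higher related genes, 0 as reported, became 13 with normexp and 75th percentile scaling. Lower related genes, 2 as reported, became 1 with median scaling, 9 with normexp and 75th percentile scaling and 6 with no filter. They became 0 with slide as a fixed block, 0 with slide as a random block and 0 on slide 1 arrays alone. Leaving out 1 array gave 0 to 7, with 7 when fipronil replicate 8 was left out. Of all genes, 4.32% passed with median scaling and 0.0886% with slide as a fixed block. For the other fits the shares are those given with the higher counts.

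Differences that changed sign are given with their new values. Under median scaling these were Sqstm1 -0.01, Map1lc3b -0.09, Atg3 -0.02, Rb1cc1 -0.04, Ambra1 0 and Tax1bp1 -0.06. Under normexp with 75th percentile scaling they were Sqstm1 -0.20, Map1lc3b -0.23, Atg3 -0.09, Atg4a 0.35, Atg4b 0.58, Atg4d 0.18, Atg5 0.55, Atg7 0.25, Wdr45 0.21, Pik3c3 0.17, Pik3r4 0.26, Tax1bp1 -0.13 and Stx17 0.40. With the fixed slide block and on slide 1 arrays alone, slide 1 gives the difference, so the values are the same by design. They were Map1lc3a 0.61, Gabarap 0.26, Gabarapl1 1.03, Atg2a 0.28, Atg3 -0.53, Atg4b 0.31, Atg4d 0.58, Atg5 0.12, Atg101 0.31, Rb1cc1 -1.69, Pik3c3 0.22, Nbr1 0.01, Calcoco1 0.75, Tax1bp1 -0.68 and Epg5 -0.05. With slide as a random block they were Map1lc3a 0.07, Gabarapl1 0.17, Atg3 -0.11, Atg4b 0.02, Atg4d 0.01, Atg101 0.03, Rb1cc1 -0.50, Calcoco1 0.12 and Tax1bp1 -0.19. The mean of a gene's probes gave Map1lc3b -0.13, and removing the GC trend, an alternative chosen after seeing the data, gave Atg101 0.01. Leaving out 1 array turned the sign in some fits of Sqstm1 (-0.01 to 0.19), Map1lc3b (-0.06 to 0.06), Rb1cc1 (-0.24 to 0.46) and Tax1bp1 (-0.09 to 0.22).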
